A study of Mus musculus with 12 samples.

Results

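The genes described are neurotrophic factors and receptors of the mouse cornea: the neurotrophins Bdnf and Ntf3, the GDNF family ligands Artn and Gdnf, and the receptors Ntrk2, Ntrk3, Ngfr and Gfra3. The 8 genes were taken by symbol from a count table of 19702 genes, all 8 were found, and all 8 passed the filter on low counts. RNA of whole corneas was sequenced in 12 libraries of 4 groups, with 3 libraries per group, and each library pooled 6 corneas from 3 mice. UCPRP and UCS corneas were injured with benzalkonium chloride (BAK), a detergent preservative of eye drops, and given UCPRP or UCS, which the series title describes as cord blood-derived biologics. Vehicle corneas were injured with BAK and are labelled as untreated, and Control corneas had neither injury nor treatment. BAK was dosed at 5 µl of 0.2% per eye daily for 14 days, and UCPRP or UCS at 5 µl of 20% with 3 doses daily for 10 days. Whether the biologics came after BAK or alongside it, whether Vehicle eyes received drops without a biologic, and what strain and age the mice had, were not stated in the labels read here.

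Neurotrophins are secreted proteins that keep sensory and sympathetic neurons alive and guide the growth of their axons. Each binds a preferred receptor tyrosine kinase: BDNF binds TrkB (encoded by Ntrk2) and neurotrophin-3 (Ntf3) binds TrkC (Ntrk3), while p75 (Ngfr) binds every neurotrophin. The GDNF family works through a GFRα co-receptor that hands the ligand to the kinase Ret, with artemin (Artn) using Gfra3 and GDNF using Gfra1. The cornea is densely supplied by sensory axons whose cell bodies lie in the trigeminal ganglion, outside the tissue sampled.

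Libraries held 18.55 M to 20.44 M estimated counts. Levels are CPM, counts relative to library size scaled with the TMM factors of edgeR, fold changes and adjusted p values are from edgeR's quasi-likelihood test over 16124 genes, with Benjamini-Hochberg adjustment, and "called" means that the adjusted p was below 0.05. Errors of CPM are SD over 3 libraries. The tissue label held for Control, where the corneal epithelial keratin Krt12 stood at 15897 to 32863 CPM, while it stood at 3.29 to 186 CPM in the 9 injured libraries. Retina and lens transcripts were present in every library: the 12 retina markers summed to 2508 to 14782 CPM and the lens crystallin Cryaa ran from 13.6 to 14983 CPM. The 6 iris and melanocyte markers summed to 3001 to 5591 CPM and the 10 skeletal muscle markers to 11.7 to 1398 CPM. All 10 muscle markers had a higher mean in Vehicle than in Control, but none was called. Clock genes split the libraries, with Dbp at 14.7 to 25.9 CPM in UCS replicate 1, Vehicle replicates 1 and 2 and Control replicate 3, and at 139 CPM or more in the others. In such bulk libraries, fewer cells of a type and less RNA per cell cannot be told apart.

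The comparison of Vehicle with Control asks how BAK injury altered these genes. The ligands Ntf3 and Artn and the receptor Ntrk2 fell, and the receptor Ntrk3 rose. Thus 4 of 8 genes were called, 3 lower and 1 higher, where 16.5% of all genes tested were called, 6.92% as lower and 9.58% as higher. The median log2 fold change of the 8 was −0.63, against −0.0013 over all genes. The libraries of Vehicle and Control did not overlap for 7 of the 8, 5 lower and 2 higher, which was so for 30.6% of all genes, 15.4% lower and 15.2% higher.

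Ntf3 (Entrez 18205, chromosome 6, 126101412 to 126166772, minus strand, GRCm38.p6), the ligand of TrkC, stood at 6.55, 5.37 and 7.81 CPM in Vehicle replicates 1 to 3, against 18.2, 20.2 and 16.3 CPM in Control replicates 1 to 3. Every Vehicle library lay below every Control library, and the Vehicle level was 36.2% of the Control level in the fit (edgeR log2 fold change of −1.47 ± 0.21 SE and adjusted p = 0.000741). Artn (Entrez 11876, chromosome 4, 117925908 to 117930795, minus strand), the ligand of GFRα3, stood at 5.83, 4.3 and 5.15 CPM in Vehicle and at 13.4, 14.1 and 9.78 CPM in Control. The groups did not overlap, and Vehicle was at 41% of Control (edgeR log2 fold change of −1.29 ± 0.29 SE and adjusted p = 0.0108).

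Ntrk2 (Entrez 18212, chromosome 13, 58806472 to 59133970, plus strand), which encodes TrkB, was the member with the most reads. It stood at 94.6, 79.7 and 117 CPM in Vehicle and at 176, 181 and 173 CPM in Control, with all Vehicle libraries lower and the Control libraries close together. Vehicle was at 54.9% of Control (edgeR log2 fold change of −0.87 ± 0.19 SE and adjusted p = 0.00964). The gene makes a full-length kinase and truncated receptors without a kinase domain, which a count per gene does not separate. The calls for Ntf3, Artn and Ntrk2 held in each of the 23 other fits run, with the largest adjusted p at 0.0489 for Artn.

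Ntrk3 (Entrez 18213, chromosome 7, 78179986 to 78581034, minus strand), which encodes TrkC, moved the other way. It stood at 20.8, 15.3 and 21 CPM in Vehicle and at 13.3, 8.78 and 13.3 CPM in Control, without overlap (edgeR log2 fold change of 0.69 ± 0.19 SE and adjusted p = 0.0307). The call was lost without Vehicle replicate 1, Vehicle replicate 3 or Control replicate 2 (edgeR adjusted p = 0.0975, 0.0892 and 0.094), when only these 2 groups were fitted (0.0785), and with clock phase as a covariate (0.0561). The fold change stayed positive in all 23 of the other fits, from 0.51 to 0.83 on the log2 scale.

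Among the members that were not called, Ngfr and Bdnf lay lower in Vehicle. Ngfr (Entrez 18053, chromosome 11, 95568818 to 95587698, minus strand), the p75 receptor, stood at 22.7, 30.4 and 23.2 CPM in Vehicle and at 46.8, 41.2 and 32.4 CPM in Control. The groups did not overlap, but the gene did not pass (log2 fold change −0.66, 95% interval −1.17 to −0.15, edgeR adjusted p = 0.0791). It passed in 3 of the 23 other fits, those with DESeq2 (adjusted p = 0.0452), with the retina markers as a covariate (0.0403) and without UCPRP replicate 3 (0.0175). Bdnf (Entrez 12064, chromosome 2, 109674700 to 109727043, plus strand), the ligand of TrkB, stood at 3.25, 4.3 and 3.98 CPM in Vehicle and at 4.68, 5.69 and 7.04 CPM in Control, again without overlap. Its log2 fold change was −0.59 (95% interval −1.05 to −0.14, edgeR adjusted p = 0.0789), and it passed in none of the 23 other fits.

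Gdnf and Gfra3 had the fewest reads and wide intervals. Gdnf (Entrez 14573, chromosome 15, 7810048 to 7837580, plus strand) had 47, 46 and 56 estimated counts in Vehicle and 71, 49 and 55 in Control. On the CPM scale it averaged 2.51 ± 0.32 in Vehicle and 3.14 ± 0.45 in Control, with overlap at 1 Vehicle library (log2 fold change −0.32, 95% interval −0.84 to 0.20, edgeR adjusted p = 0.43). Gfra3 (Entrez 14587, chromosome 18, 34689898 to 34720387, minus strand), the co-receptor for artemin, had 51, 38 and 39 estimated counts in Vehicle and 27, 28 and 35 in Control. Every Vehicle library was higher in CPM, but the log2 fold change of 0.41 had an interval from −0.30 up to 1.13 (edgeR adjusted p = 0.467).

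**Figure D1:**
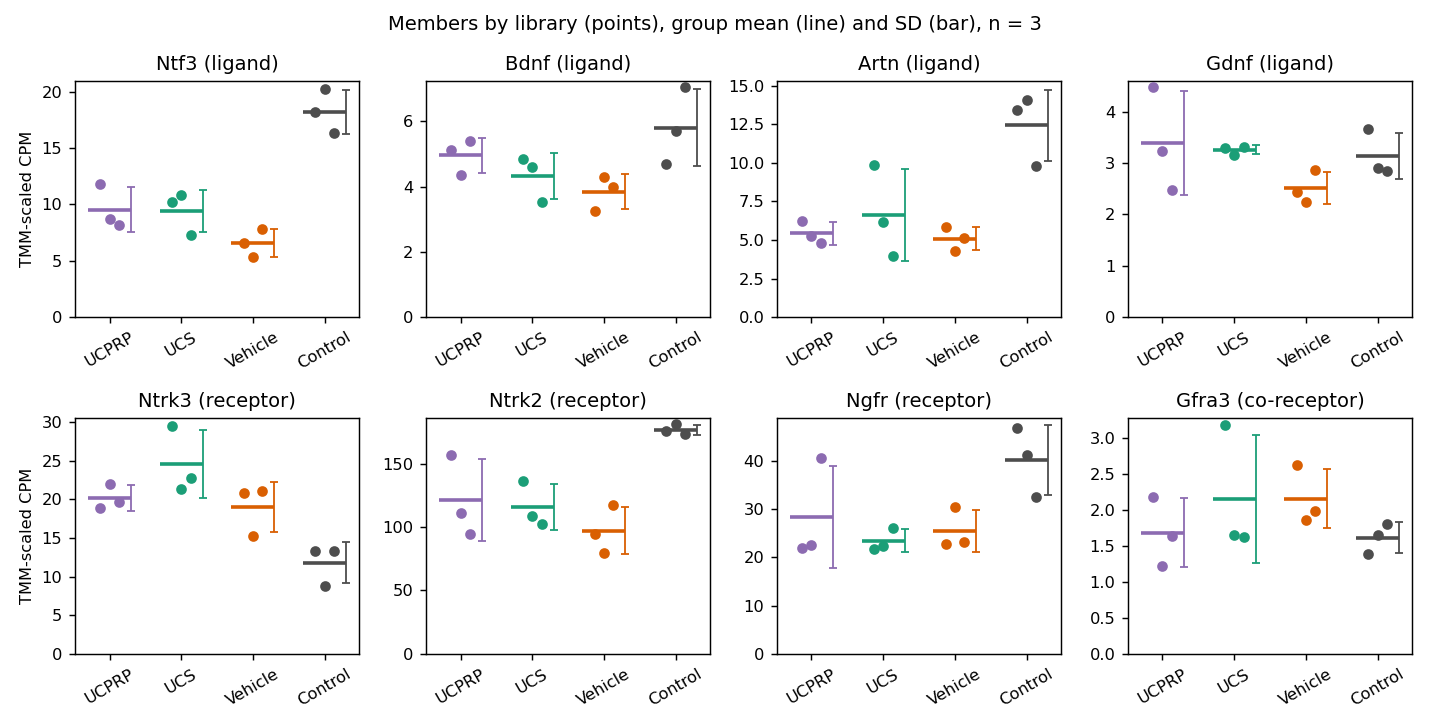
TMM-scaled CPM (vertical axis, from 0) of the 8 genes in each library (points) of UCPRP, UCS, Vehicle and Control (horizontal axis), with the group mean as a line and the SD as a bar (n = 3). Ntf3, Artn and Ntrk2 lie lowest on average in Vehicle, at 6.58, 5.09 and 96.9 CPM against 18.2, 12.4 and 177 CPM in Control, while Ntrk3 lies at 19 CPM in Vehicle against 11.8 CPM in Control.

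Sequence before an annotated start is shown for the 3 genes that fell (RefSeq promoter table, GRCm38.p6, read 5′ to 3′ along the gene). For Ntf3 and Artn it is the 250 bases before a start that is not the outermost one, and both stretches lie inside the RefSeq span of the gene. Only stretches that overlap no GENCODE M21 exon were kept. That filter was not applied to the promoters behind the shares and medians given below. Overlap with exons of other RefSeq transcripts was not checked. For Ntrk2 the 250 bases before the start ran into the RefSeq span of the gene. Only the first 153 of them, outside that span, are shown, so the bases nearest the start are left out. Capitals mark matches to the GC box GGGCGG or its reverse complement CCGCCC. The stretches are chr6:126164961-126165210 for Ntf3 and chr4:117929764-117930013 for Artn, both on the minus strand, and chr13:58806319-58806471 for Ntrk2 on the plus strand.
Ntf3: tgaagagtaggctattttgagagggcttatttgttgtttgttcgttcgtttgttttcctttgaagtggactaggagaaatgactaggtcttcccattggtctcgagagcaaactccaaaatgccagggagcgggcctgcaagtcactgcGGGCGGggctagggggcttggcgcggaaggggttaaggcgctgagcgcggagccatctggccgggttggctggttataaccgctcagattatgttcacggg
Artn: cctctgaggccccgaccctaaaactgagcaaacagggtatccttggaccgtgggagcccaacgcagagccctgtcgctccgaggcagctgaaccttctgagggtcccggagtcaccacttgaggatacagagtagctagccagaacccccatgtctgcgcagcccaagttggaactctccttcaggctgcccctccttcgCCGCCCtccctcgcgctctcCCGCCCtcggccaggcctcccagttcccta
Ntrk2: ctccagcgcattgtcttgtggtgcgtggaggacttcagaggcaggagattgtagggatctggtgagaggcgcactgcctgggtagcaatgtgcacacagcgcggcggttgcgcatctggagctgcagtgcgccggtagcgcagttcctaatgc
The Ntf3 stretch held 1 GC box, whose first base lies at −101 from that start, Artn held 2, at −50 and −30, and the shorter Ntrk2 stretch held none. Of 32851 mouse promoter stretches of 250 bases, 32.7% held at least 1. None of the 3 stretches held the E-box CACGTG, which 6.02% of all promoters held, the AP-1 site TGANTCA (6.75%), the TATA box TATAAA (12.4%) or the CRE TGACGTCA (1.55%), searched on both strands. The Ntf3 and Artn stretches held 14 and 13 CG pairs against a median of 6 at the same length. The GC content was 54% for Ntf3 and 63.6% for Artn, against a median of 52.4% at the same length. It was 60.8% over the 153 bases shown for Ntrk2. These matches describe the letters only. For Ntrk2 the bases nearest the start were left out, so its absences and GC content cannot be set against those of all promoters.

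The rest of both families was measured beside them. Of 16 other ligands, receptors and co-receptors 15 were tested, 2 rose in Vehicle and none fell, where 9.58% of all genes rose and 6.92% fell, with a median log2 fold change of 0.07. Sorcs2, a sortilin-type receptor that pairs with p75 to bind pro-neurotrophins, stood at 20.9, 34.3 and 27.6 CPM in Vehicle and at 15, 7.17 and 11.8 CPM in Control. The groups did not overlap, and it rose by 1.28 on the log2 scale (adjusted p of 0.0233 by edgeR), a call lost without Vehicle replicate 2 or 3 or Control replicate 2 or 3 (adjusted p up to 0.0907). Ret, the kinase shared by the GDNF family, was not called (log2 fold change 0.08 with an interval of −0.41 to 0.57).

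Within a library, a ratio of counts does not depend on scaling. The count of Ntrk2 was 4.55, 5.22 and 5.55 times that of Ntrk3 in Vehicle and 13.2, 20.7 and 13 times in Control. The ratio reached 8.36, 5.06 and 4.79 in UCPRP and 4.6, 5.13 and 4.5 in UCS, so every injured library lay below every Control library. The ratio was chosen after the values were seen and is given without a test.

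**Figure D2:**
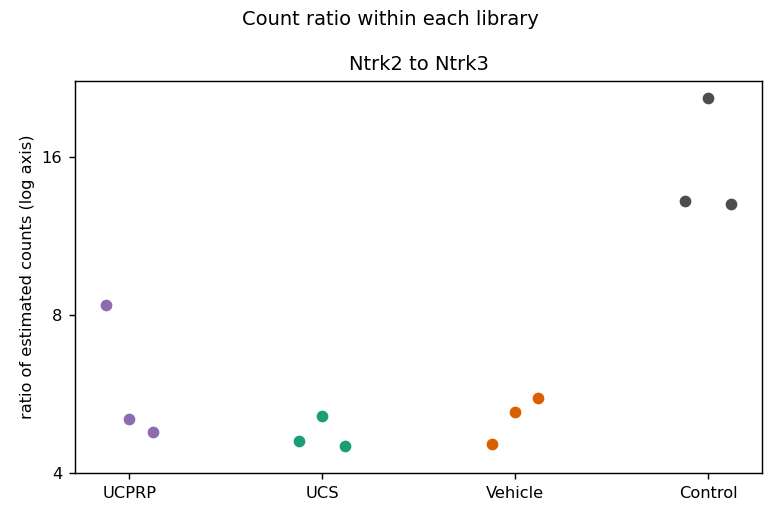
Ratio of estimated counts within each library (points, log axis) for Ntrk2 to Ntrk3 in UCPRP, UCS, Vehicle and Control (horizontal axis). The ratio is 4.79 to 8.36 in UCPRP, 4.5 to 5.13 in UCS, 4.55 to 5.55 in Vehicle and 13 to 20.7 in Control.

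Downstream and processing genes were counted in the same way. Of 22 adaptors and effectors 2 rose and 2 fell, a share near the 16.5% of all genes called. The largest changes were in Sh2b2, an adaptor of Trk receptors (log2 fold change 1.93, edgeR adjusted p = 0.000861), Dok4, a docking protein for Ret (−0.59, adjusted p = 0.0243), and Nradd, a membrane protein similar to p75 (0.58, adjusted p = 0.0343). Of the 23 other fits, 18 called Dok4 and 15 called Nradd. None of 8 co-receptors and ligands of the p75 and Nogo receptor complex passed, where 16.5% of all genes did. Of 7 tested genes that cleave pro-neurotrophins or control that cleavage 4 rose, where 9.58% of all genes rose. Among the 4 were Mmp9 at 4.83, Mmp3 at 2.57 and Plat, the tissue plasminogen activator, at 0.96 on the log2 scale (edgeR adjusted p = 0.000397, 0.000326 and 0.0174). Plat lost its call in 5 of the 23 other fits. Mmp9 stood at 43.4, 50.5 and 15.8 CPM in Vehicle replicates 1 to 3 and at 1.18, 0.771 and 1.86 CPM in Control, and the replicates where it was highest also had the highest sums of neutrophil markers; their part in its level was not tested.

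Markers of cells that could carry these transcripts also differed. Over all genes tested, 9.58% were called higher in Vehicle than in Control and 6.92% lower. Of 10 corneal epithelial genes 8 fell and 1 rose in Vehicle, and their sum was 27941 to 35946 CPM against 55811 to 111370 CPM in Control. All 9 conjunctival and goblet cell markers rose, with a sum of 13223 to 19192 CPM in Vehicle against 2681 to 6215 CPM in Control. All 8 macrophage markers rose, with a sum of 604 to 814 CPM in Vehicle against 150 to 219 CPM in Control. Of 6 neutrophil markers tested 5 rose, and the sum of that list was 431, 431 and 81.5 CPM in Vehicle replicates 1 to 3 and 10.9 to 17.7 CPM in Control. Of 8 keratocyte markers 4 rose and 2 fell, with a sum of 7050 to 11743 CPM in Vehicle and 6142 to 8276 CPM in Control. In the Schwann cell list of 12 genes 1 rose and 1 fell, and none was at 0 in any library. Mal, which epithelia also make, gave at least 86.1% of that list's sum. The other 11 genes summed to 192 to 258 CPM in Vehicle and 218 to 285 CPM in Control. The 12 sensory neuron markers summed to 44.8 to 118 CPM in Vehicle and 30.2 to 84.2 CPM in Control, and 2 of the 8 tested rose. Among them the neurofilament gene Nefl ran from 13.9 to 83.6 CPM over the 12 libraries, while Scn10a and Trpm8 reached at most 0.0515 and 0.195 CPM. The 12 retina markers summed to 2508 to 11528 CPM in Vehicle and 3343 to 9169 CPM in Control, which overlapped. With the retina list as a covariate all 4 calls held and Ngfr joined them, and with the Schwann cell list the same number was called. The part of the epithelial, conjunctival, macrophage, neutrophil and keratocyte changes in the member results was not tested.

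Per kilobase of exon, which allows genes to be set side by side, Ngfr, Ntrk2 and Ntf3 led in both groups. In Vehicle the order was Ngfr (7.38 ± 1.24 CPM per kb), Ntrk2 (5.03 ± 0.96), Ntf3 (3.84 ± 0.71) and Artn (2.12 ± 0.32), and in Control it was Ngfr (11.7 ± 2.11), Ntf3 (10.6 ± 1.14), Ntrk2 (9.15 ± 0.23) and Artn (5.17 ± 0.96). The libraries of Ntrk2 and Ntf3 overlapped in Vehicle, and those of Ngfr and Ntf3 in Control. Ngfr lay above Ntrk2 in every Vehicle library, Ntf3 lay above Ntrk2 in every Control library, and Artn lay below these 3 genes in both groups. With the biologics the order of the first 4 was that of Vehicle, at 8.23 ± 3.05, 6.26 ± 1.67, 5.58 ± 1.16 and 2.26 ± 0.31 CPM per kb in UCPRP and 6.80 ± 0.69, 5.99 ± 0.92, 5.50 ± 1.11 and 2.76 ± 1.24 in UCS for Ngfr, Ntrk2, Ntf3 and Artn. That order is of means: the libraries of Ngfr, Ntrk2 and Ntf3 overlapped in both biologic groups, and Ntrk2 exceeded Ngfr in replicate 1 of each. The UCPRP mean of Ngfr includes 11.8 CPM per kb in replicate 3, against 6.38 and 6.55 in the others. The other 4 genes lay at 0.618 to 1.08 CPM per kb in Vehicle and at 0.391 to 0.934 in Control. Ntrk2 and Ntrk3 have exon lengths of 19292 and 30170 bases when all annotated isoforms are joined, which lowers their values per kilobase relative to a shorter isoform.

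Whether the biologics altered these genes in injured corneas was asked by comparing UCPRP and UCS with Vehicle. No member was called in either comparison by edgeR, DESeq2 or limma-voom. The background was also 0 calls, or 0% of genes, by edgeR in both; 9.75% of genes had an unadjusted p under 0.05 for UCPRP and 4.85% for UCS, as had 1 of the 8 members, Ntf3, in each. DESeq2 called 145 genes for UCPRP and 13 for UCS, or 0.899% and 0.0806%. Of the 8 members 7 had a higher mean than Vehicle with each biologic, as had 55.3% of all genes for UCPRP and 48.4% for UCS, where Gfra3 was at a tie in UCS (log2 fold change 0.0007). Libraries lay apart and higher for 2 members in each, Bdnf and Ntf3 in UCPRP and Gdnf and Ntrk3 in UCS, as for 6.69% and 5.02% of all genes. Both comparisons share the Vehicle libraries.

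Ntf3 stood at 11.8, 8.67 and 8.17 CPM in UCPRP and at 10.2, 10.8 and 7.25 CPM in UCS, against 6.55, 5.37 and 7.81 CPM in Vehicle. The UCPRP libraries lay above all Vehicle libraries and UCS overlapped Vehicle at its lowest library. The log2 fold change was 0.54 for UCPRP (95% interval 0.09 to 0.99, edgeR adjusted p = 0.453) and 0.52 for UCS (0.06 to 0.97, adjusted p = 1). Both intervals are those of the single test, not adjusted over genes. Both means stayed well under the 18.2 CPM of Control.

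Artn stood at 6.24, 5.29 and 4.78 CPM in UCPRP and at 9.83, 6.16 and 3.93 CPM in UCS, against 5.83, 4.3 and 5.15 CPM in Vehicle. UCS was the most spread of the groups, since its replicate 1 reached the level of the lowest Control library and its replicate 3 lay below all Vehicle libraries. The log2 fold changes against Vehicle were 0.09 for UCPRP (interval −0.55 to 0.74) and 0.38 for UCS (interval −0.26 to 1.02). Without UCS replicate 1, a library with low Dbp, the second became −0.01. With every library kept and clock phase as a covariate, the UCS value was 0.39. The cause of the spread in UCS was not tested.

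Bdnf and Gdnf had somewhat higher means with the biologics than in Vehicle, without a call. Bdnf averaged 4.96 ± 0.54 CPM in UCPRP, 4.32 ± 0.70 CPM in UCS and 3.84 ± 0.54 CPM in Vehicle. Gdnf averaged 3.39 ± 1.02 CPM in UCPRP, 3.26 ± 0.086 CPM in UCS and 2.51 ± 0.32 CPM in Vehicle. The intervals against Vehicle were −0.09 to 0.83 and −0.29 to 0.63 for Bdnf, and −0.09 to 0.95 and −0.15 to 0.90 for Gdnf, with UCPRP before UCS in each pair.

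Among the receptors, Ntrk2 stood at 157, 111 and 94.7 CPM in UCPRP and at 136, 109 and 102 CPM in UCS, against 94.6, 79.7 and 117 CPM in Vehicle. The groups overlapped (log2 fold changes 0.32, interval −0.10 to 0.74, and 0.25, interval −0.17 to 0.67). Ntrk3 stood at 18.8, 22 and 19.7 CPM in UCPRP and at 29.5, 21.3 and 22.7 CPM in UCS, against 20.8, 15.3 and 21 CPM in Vehicle. The UCS libraries lay above those of Vehicle and UCPRP overlapped them (log2 fold changes 0.08, interval −0.33 to 0.50, and 0.36, interval −0.05 to 0.78).

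Ngfr stood at 22, 22.6 and 40.5 CPM in UCPRP and at 21.7, 22.4 and 26.1 CPM in UCS, against 22.7, 30.4 and 23.2 CPM in Vehicle. UCPRP replicate 3 reached the Control range, and the same library had the highest sum of retina markers (14782 CPM) and the highest Cryaa (14983 CPM) of all 12; their part in its Ngfr level was not tested. The log2 fold change of UCPRP against Vehicle was 0.16, and −0.19 without that library. Gfra3 averaged 1.69 ± 0.48 CPM in UCPRP, 2.16 ± 0.89 CPM in UCS and 2.16 ± 0.42 CPM in Vehicle, and the groups overlapped.

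**Figure D3:**
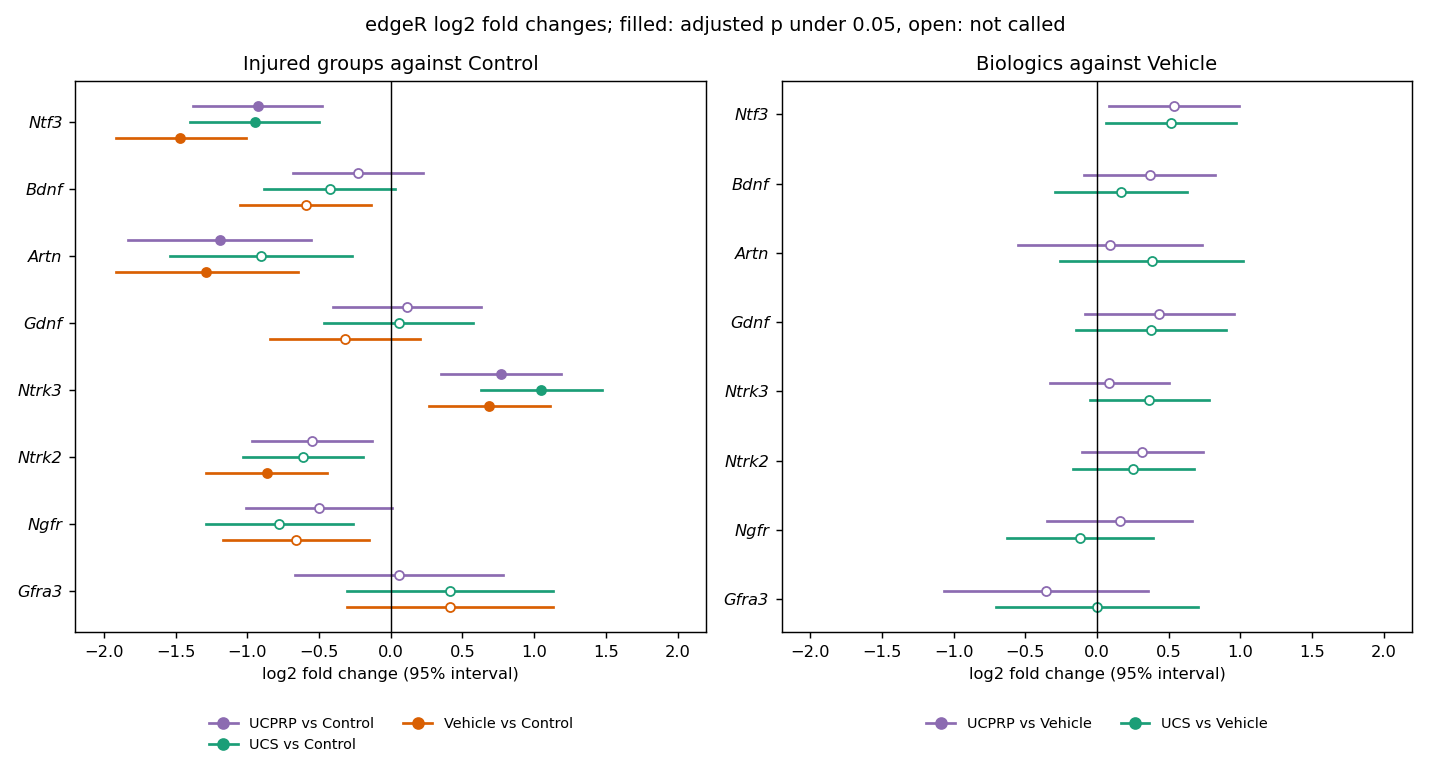
Log2 fold changes (horizontal axis) with 95% intervals for the 8 genes (vertical axis), left for UCPRP, UCS and Vehicle against Control and right for UCPRP and UCS against Vehicle, with filled points for an edgeR adjusted p under 0.05. Ntf3 is called lower in all 3 injured groups (−0.93, −0.95 and −1.47) and Ntrk3 higher in all 3 (0.77, 1.05 and 0.69), while no point is filled on the right.

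Set against Control, the injured groups given a biologic still differed in part of these genes. In UCPRP 3 of 8 were called, 2 lower and 1 higher, where 10.4% of all genes were called, 5.07% lower and 5.3% higher. In UCS 2 of 8 were called, 1 lower and 1 higher, where 10.9% of all genes were called, 4.47% lower and 6.4% higher. Libraries did not overlap Control for 4 of 8 members in each, as for 28.2% of all genes in UCPRP and 28.9% in UCS. All 3 injured groups were set against the same Control libraries, so the comparisons are not independent.

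Ntf3 was lower in UCPRP (edgeR log2 fold change of −0.93 ± 0.20 SE and adjusted p = 0.0144) and in UCS (−0.95, SE 0.20, adjusted p = 0.0115), at 52.6% and 51.8% of Control. Ntrk3 was higher in UCPRP (0.77, SE 0.19, edgeR adjusted p = 0.0258) and in UCS (1.05, SE 0.19, adjusted p = 0.00485). No UCPRP or UCS library overlapped the Control libraries for either gene. Artn was called lower in UCPRP (−1.19, SE 0.29, edgeR adjusted p = 0.0238), and in UCS its adjusted p was 0.0709 (log2 fold change −0.90), or 0.0108 without UCS replicate 1 (−1.30). With every library kept, Artn in UCS passed with DESeq2 (adjusted p = 0.0294), limma-voom (0.0437), the replicate block (0.0333) and the retina covariate (0.0156). The calls of UCPRP rested on few libraries: Ntf3 was lost without UCPRP replicate 2 or 3 (adjusted p = 0.0637 and 0.0662), Artn also without Control replicate 1 or 2, and Ntrk3 without UCPRP replicate 2 or 3 or Control replicate 2, or in a fit of UCPRP and Control alone (adjusted p = 0.0538). The 2 calls of UCS held in each of the 23 other fits.

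Ntrk2 and Ngfr were not called against Control by edgeR with either biologic, and DESeq2 called Ntrk2 in both (adjusted p = 0.0479 in UCPRP and 0.0268 in UCS) and Ngfr in UCS (0.0189). Ntrk2 had log2 fold changes of −0.55 in UCPRP (interval −0.97 to −0.13, edgeR adjusted p = 0.101) and −0.61 in UCS (interval −1.03 to −0.19, adjusted p = 0.0671), and no library of either overlapped Control. Ngfr had −0.50 in UCPRP (interval −1.01 to 0.01, edgeR adjusted p = 0.216) and −0.78 in UCS (interval −1.29 to −0.27, adjusted p = 0.0563). With every library kept, edgeR also called Ntrk2 in UCPRP with the Schwann cell covariate (adjusted p = 0.0384). In UCS it called Ntrk2 with the retina covariate (0.0242) and the Schwann cell covariate (0.0345), and Ngfr with the retina covariate (0.0302). In a fit of UCS and Control alone, edgeR called both Ntrk2 (adjusted p = 0.0392) and Ngfr (0.0285). Without UCPRP replicate 1 Ntrk2 passed in UCPRP (−0.78, edgeR adjusted p = 0.0252) and in UCS (adjusted p = 0.0304), and without UCPRP replicate 3 Ngfr passed in UCPRP (−0.85, adjusted p = 0.0201) and in UCS (adjusted p = 0.0115). Ngfr in UCS also passed without UCPRP replicate 1 or Control replicate 3 (edgeR adjusted p = 0.0492 and 0.0472). Bdnf, Gdnf and Gfra3 were not called, with adjusted p values from 0.251 to 0.951 over both comparisons. That Ntrk2 passed in Vehicle and not with a biologic is no sign of a difference, since the direct comparisons with Vehicle above did not call it.

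Outside the 8 genes, Sh2b2 and Nradd were called higher in both, with log2 fold changes of 1.13 and 0.68 in UCPRP and 1.28 and 0.66 in UCS. Of the 23 other fits, 15 and 18 called them in UCPRP and 21 and 17 in UCS. Mmp9 and Mmp3 were also called higher in both (3.13 and 1.18 in UCPRP, 3.16 and 1.30 in UCS). Mmp9 kept its call in 22 of the 23 other fits in each, and Mmp3 in 18 for UCPRP and 20 for UCS. None of the 15 tested family genes outside the members was called in either.

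UCPRP and UCS were also compared with each other. No gene of 16124 was called by edgeR, DESeq2 or limma-voom, and 2.44% of genes, but none of the 8, had an unadjusted p under 0.05. The log2 fold changes of UCPRP over UCS ran from −0.36 for Gfra3 (interval −1.07 to 0.36) to 0.27 for Ngfr (interval −0.23 to 0.78). For Ntf3 the difference was 0.02 with an interval of −0.43 to 0.47, and for Ntrk2 it was 0.06 with an interval of −0.36 to 0.48. Ntrk3 had −0.28 with an interval of −0.69 to 0.14.

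The genes whose levels followed each member most closely over the 12 libraries are named by Pearson's r on log2 CPM among 14606 genes, as a description without a test; all share the same libraries and the gap between Control and injured corneas. Ntf3 was followed by Col13a1, a transmembrane collagen (r = 0.981), Ephx2, an epoxide hydrolase (0.98), and Upk3bl, a uroplakin-like gene (0.978). Artn was followed by Wfs1, a protein of the endoplasmic reticulum (0.96), the phosphate transporter Slc34a2 (0.955) and the receptor kinase Kit (0.952). Ntrk2 was followed by Col13a1 (0.966), AW146154 (0.964) and Smim5 (0.961). Ntrk3 was followed by BC107364 (0.956), Pdpr (0.94) and the ceramide synthase Cers6 (0.939), and Ngfr by Tbc1d22b (0.931), Tspan5 (0.918) and the transcription factor Tfap2a (0.914). Bdnf was followed by Cspg5 (0.919), Tmem185a (0.9) and Dkk3 (0.897), Gdnf by the transcription factor Tbx2 (0.863), Cox6b2 (0.854) and Slc6a9 (0.847), and Gfra3 by Ahcyl2 (0.913), Atp6ap1 (0.909) and Tnr (0.909).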

How the data were processed

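Each deposited value is an estimated count of reads for 1 gene in 1 library, as the column names per the file headers say. They have up to 2 decimals, 64.9% are whole numbers, and they are not scaled to library size. HISAT and the build GRCm38 are named per the submitters' processing notes, without version. Which counter and annotation were used, and whether strand was, is not given in the sources read for this work, so reads shared with antisense or near-identical genes are uncertain; no annotated gene that overlaps a member was in the table. Per the labels' protocols, libraries were made with a stranded total RNA kit.

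Counts were rounded, filtered with filterByExpr (minimum count 10, 16124 genes kept), scaled with TMM (factors 0.825 to 1.07) and fitted with edgeR 4.0.16 in R 4.3.3 (robust quasi-likelihood, 1 term per group, all 12 libraries). The 6 pairwise comparisons were each adjusted over all genes. The SE is the absolute log2 fold change over the square root of F, and intervals use it. Counts for the 16124 genes were simulated with 200 genes changed in Vehicle alone, and 16017 genes passed the same filter on the simulated counts. Genes were drawn independently, with a spread that depended only on their mean level. In Vehicle against Control 60.7% of changes of 1 and 93.7% of changes of 2 on the log2 scale were recovered, and 7.6% of calls were false. The real libraries also differ in retina, lens and clock transcripts, so these rates may not hold for them. Log2 CPM for correlations used a prior count of 2. The upper limit for a gene without reads (3 counts over the library total, without TMM scaling) was 0.147 to 0.162 CPM, which covers counting error only.

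Alternatives were DESeq2 1.42.0, limma-voom (limma 3.58.1), other filters and scalings, fits of the compared groups alone, the replicate number as a block, 3 covariates (retina markers, Schwann cell markers, clock phase) and leaving out each library. Genes named outside the members were those of the ligand and receptor list called in any comparison plus Ret, up to 3 of the largest called changes in Vehicle against Control per other list, and the 3 most similar genes per member with a mean of at least 1 CPM, leaving out symbols of predicted genes and RIKEN clones, and from the marker lists Krt12, Cryaa and Dbp where they bear on a result. Some genes that this rule takes in are not reported here. Mal, Nefl, Scn10a and Trpm8 were named after their values were seen. The members, lists and tests were chosen with earlier results of these data known. Exon lengths are from GENCODE M21 and coordinates from RefSeq, both on GRCm38.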

Additional observations from a re-analysis of the deposited data

How the results depend on the processing

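The number of members called stayed within 3 to 5 for Vehicle against Control in every fit, with and without single libraries (4 as reported), and at 0 for UCPRP and UCS against Vehicle and for UCPRP against UCS. For UCS against Control it was 2 as reported, 5 with DESeq2, 4 when only these groups were fitted, 5 with the retina covariate and 2 to 4 with single libraries left out. For UCPRP against Control it was 3 as reported and 0 to 4 with single libraries left out, being 0 without UCPRP replicate 2 and 1 without UCPRP replicate 3 or Control replicate 2. Fewer samples enter each such fit; otherwise the cause was not tested. Whether replicate numbers mark shared samples or a batch is not stated in the labels. Deviations of libraries from their group means correlated at −0.581 to 0.494 for the same number and at −0.498 to 0.585 for other numbers. Of 12 libraries 3 correlated best with their own number. These values cannot decide the question, since other differences between libraries, such as their retina transcripts, also enter the correlations. With the replicate block the members called were 4, 3 and 3 for Vehicle, UCS and UCPRP against Control, and 2300, 1493 and 1402 genes were called in all, against 2661, 1753 and 1671 without it. All-gene counts went beyond 1.5 times only as follows: 1089 for UCS against Control without UCS replicate 3; 1009 and 998 for UCPRP against Control without UCPRP replicate 2 or 3; and, against Vehicle, 37 for UCS and 195 for UCPRP without Vehicle replicate 3, and 13 and 145 with DESeq2, from 0.

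Only uncalled results changed sign. With single libraries left out, log2 fold changes against Control ran for Vehicle from −0.0932 to 0.27 (Ret), for UCS from −0.0129 to 0.18 (Gdnf) and −0.19 to 0.0177 (Ret), and for UCPRP from −0.14 to 0.30 (Gdnf), −0.17 to 0.24 (Gfra3) and −0.033 to 0.29 (Ret). Against Vehicle they ran for UCS from −0.0139 to 0.65 (Artn), −0.20 to 0.0217 (Ngfr) and −0.39 to 0.17 (Gfra3), and for UCPRP from −0.0284 to 0.20 (Artn), −0.0629 to 0.16 (Ntrk3) and −0.19 to 0.31 (Ngfr). For UCPRP over UCS they ran from −0.16 to 0.13 (Ntf3), −0.56 to 0.11 (Artn), −0.19 to 0.24 (Gdnf), −0.17 to 0.21 (Ntrk2), −0.073 to 0.43 (Ngfr) and −0.58 to 0.0342 (Gfra3). Gfra3 in UCS against Vehicle, 0.0007 as reported, was −0.0238 with library totals, −0.0541 with limma-voom, −0.0008 with these groups alone, −0.0301 with the replicate block, −0.035 with the retina and −0.01 with the Schwann cell covariate. The Schwann cell covariate gave −0.033 for Gfra3 in UCPRP against Control and, for UCPRP over UCS, −0.0608 (Ntf3), −0.0262 (Gdnf) and −0.036 (Ntrk2). The retina covariate gave −0.0916 for Ret in UCPRP against Control, and clock phase gave −0.0723 for Ntf3 and −0.0344 for Gdnf in UCPRP over UCS. The cause was not tested. Counts of 24 to 60 reads per library limit Gfra3, and 46 to 84 limit Gdnf.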

Other observations

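Of 15 other neurotrophic factors and receptors tested, 2 rose in Vehicle against Control and none fell, where 9.58% of all genes rose and 6.92% fell, and none was called with a biologic against Control or Vehicle. Il6st, the gp130 receptor shared by LIF and CNTF, rose by 0.57 on the log2 scale (SE 0.13, adjusted p of 0.0132 by edgeR), a call lost without Vehicle replicate 1 (adjusted p = 0.0533). Lif, a cytokine that acts through it, stood at 12.5, 9.13 and 4.44 CPM in Vehicle and at 2.73, 2.31 and 4.55 CPM in Control, so the groups overlapped. It was called (edgeR log2 fold change of 1.44 ± 0.44 SE and adjusted p = 0.0452) but kept its call in only 9 of the 23 other fits, with an adjusted p up to 0.166.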
